A study of Caenorhabditis elegans with 2 samples.

Results

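The strong regions on chromosome X were 471 of the 30000 regions in the pooled list of a ChIP-seq experiment on a GFP-tagged transcription factor in first-stage (L1) larvae of the nematode Caenorhabditis elegans. ChIP-seq recovers the DNA fragments that an antibody pulls down with a protein and sequences them, and each region is a short stretch where those fragments pile up around a summit. All 30000 regions were ranked by the authors' pooled signal, and a region was a member if it ranked 1 to 2000 and lay on X. Of the 471 members, 21 lay within 50 kb of mdl-1, the gene that the antibody label names, and are described apart from the 450 on the rest of X. Of all 30000 regions, 6.67% held a rank of 1 to 2000. X held 6036 of the 30000 regions, and 23.55% of those ranked 1 to 2000. Pooled signal chose the members, so their signals and ranks are given as a description, with no test. The comparisons are with the 1529 autosomal regions of rank 1 to 2000 and with the 5532 regions on the rest of X with lower ranks.

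The animals were whole L1 larvae of strain OP355, of mixed sex, with the genotype unc-119(tm4063) III; wgIs355. The only group held 2 biological replicates with 1 technical replicate each, from fragments of 150 to 350 bp, and no other genotype, stage or treatment was compared. The source and antibody fields name mdl-1 as the tagged gene, whereas the description names ZK337.2, and the promoter driving the transgene is not stated in the labels. Whole larvae mix all tissues, so a region found in every cell and one found in a few cells cannot be told apart.

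MDL-1 belongs to the bHLH-Zip transcription factors and is the worm relative of Mad. It pairs with the Max-like protein MXL-1 and binds the E-box CACGTG, a palindrome that also serves the Myc and Mondo side of the same network in animals. The X chromosome is the target of dosage compensation in this species: a condensin-based complex is recruited to X in hermaphrodites at elements that hold a motif with the core GCGCAGGG and lowers transcription of its genes. X also carries a large share of the worm's tRNA genes, which RNA polymerase III transcribes from internal promoters that include a B box.

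The sequences below run 50 bases either side of the summit on ce11, read from the WBcel235 assembly. The first is the strongest region in the data, just upstream of mdl-1, and the next 4 are the strongest members on the rest of X with CACGTG within 50 bp of the summit. Capitals mark CACGTG.
mdl-1, chrX:6742204-6742304, + strand: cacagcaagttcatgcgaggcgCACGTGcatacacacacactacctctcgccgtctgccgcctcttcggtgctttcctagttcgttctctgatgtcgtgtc
C36E6.2, chrX:17451535-17451635, + strand: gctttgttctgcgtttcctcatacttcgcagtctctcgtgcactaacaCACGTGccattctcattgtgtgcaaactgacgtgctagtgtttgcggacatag
epg-7, chrX:7334509-7334609, + strand: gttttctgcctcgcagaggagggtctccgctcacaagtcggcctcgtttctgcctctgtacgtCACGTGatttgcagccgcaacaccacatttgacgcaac
F09A5.3, chrX:13145306-13145406, + strand: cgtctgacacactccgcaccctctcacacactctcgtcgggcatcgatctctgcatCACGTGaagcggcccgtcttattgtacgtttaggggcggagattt
bcat-1, chrX:12872426-12872526, + strand: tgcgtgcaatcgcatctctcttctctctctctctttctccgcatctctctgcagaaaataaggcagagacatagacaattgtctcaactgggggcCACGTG

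The next 2 are the strongest members on the rest of X without CACGTG, shown because they rank beside the regions above and lack its letters. No base is in capitals.
epn-1, chrX:14818941-14819041, + strand: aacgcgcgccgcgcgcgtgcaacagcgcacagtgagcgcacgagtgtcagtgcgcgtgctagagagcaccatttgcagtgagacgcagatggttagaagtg
zfp-3, chrX:1446924-1447024, + strand: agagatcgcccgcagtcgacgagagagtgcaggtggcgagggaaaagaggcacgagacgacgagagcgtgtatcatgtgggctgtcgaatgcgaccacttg

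The last 2 are the strongest members with the core of the dosage compensation motif and with the B box of tRNA genes. Capitals mark GCGCAGGG in the window at gtr-1, and the B box (GGTTCGA, any 2 bases, then CC) in the other, at C04A11.5, whose summit lies inside the tRNA-Leu gene C04A11.t1.
gtr-1, chrX:806631-806731, + strand: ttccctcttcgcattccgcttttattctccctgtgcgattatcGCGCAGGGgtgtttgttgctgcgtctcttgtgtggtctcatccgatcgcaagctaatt
C04A11.5, chrX:13665600-13665700, + strand: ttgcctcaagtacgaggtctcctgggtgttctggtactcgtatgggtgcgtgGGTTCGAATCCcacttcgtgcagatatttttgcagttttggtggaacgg

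The 21 members near mdl-1 crowded into 24.98 kb, between 17.0 kb upstream and 7.94 kb downstream of the gene's 5' end, and included 4 of the 8 strongest regions of the whole list. mdl-1 (WBGene00003163) spans chrX:6742351-6743899 on the plus strand. Its promoter held the strongest region, whose pooled signal of 503.3 went with 190.5 in replicate 1 and 294.5 in replicate 2; that summit lies 97 bp from the start of the gene, on the upstream side. Of the 21, 13 (61.9%) were in the authors' thresholded list, against 12.03% of the strong autosomal regions and 0.863% of all 30000 regions. That list holds the strongest pooled regions, and pooled signal also chose the members. The contrast with all regions therefore follows largely from that choice. Regions of lower rank also lay in the neighbourhood: 8 of them fell inside the 24.98 kb, and the 25 regions outside that stretch had pooled signals of only 16.3 to 26.9.

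The genes under this stretch are slc-25A10, which encodes a mitochondrial carrier of the SLC25 family, K11G12.6, R03E9.2, mdl-1 and abts-4, an anion transporter gene. The region in an intron of abts-4, 7941 bp downstream of the mdl-1 5' end, ranked 4 with a pooled signal of 296.4, and 173.3 in replicate 1 and 125.2 in replicate 2. The region 4584 bp upstream, between R03E9.2 and mdl-1, ranked 5 with 280.3, and 146.6 in replicate 1 and 130.9 in replicate 2. The region in an intron of mdl-1 itself ranked 8 with 270.9, and 158.9 in replicate 1 and 110.8 in replicate 2. In these 3 the signal was higher in replicate 1, whereas at the 5' end it was higher in replicate 2.

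Weaker members filled the gaps between these peaks. The region 1695 bp downstream of the 5' end, in a non-coding RNA gene, ranked 19 with a pooled signal of 187.2 (90.3 in replicate 1 and 77.5 in replicate 2). The region 1152 bp upstream ranked 48 with 109.1, and 56.3 in replicate 1 and 48.5 in replicate 2. Some of the next regions leaned to replicate 2: the region ranked 67 had 33.2 in replicate 1 and 47.9 in replicate 2, the region ranked 107, in the abts-4 intron, had 22.4 and 40.1, and the region ranked 130 had 23.9 and 50.5. At K11G12.6 the regions ranked 188 and 230 had pooled signals of 58.2 and 52.5, with 36.0 and 27.2 in replicate 1 and 24.1 and 27.6 in replicate 2. The regions ranked 178, in an intron of slc-25A10, and 219, 2771 bp upstream of mdl-1, had a match only in replicate 2, with 49.8 and 32.4.

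The 8 members near mdl-1 below the authors' threshold ranked 270 to 1479, with pooled signals of 32.6 to 49.0. Neighbouring summits of the 21 members were a median of 976.5 bp apart. A match within 200 bp was found in both replicate lists for 17 of the 21, in replicate 2 alone for 3 and in replicate 1 alone for 1, and the replicate 2 region of rank 70 was the match of 2 pooled regions. CACGTG lay within 50 bp of 6 of the 21 summits (28.6%, 95% exact interval 11.3 to 52.2%), at those ranked 1, 4, 5, 19, 48 and 219. The control libraries were not analysed here, and the part that copies of this stretch in the transgene could have in its signal was not tested.

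**Figure D1:**
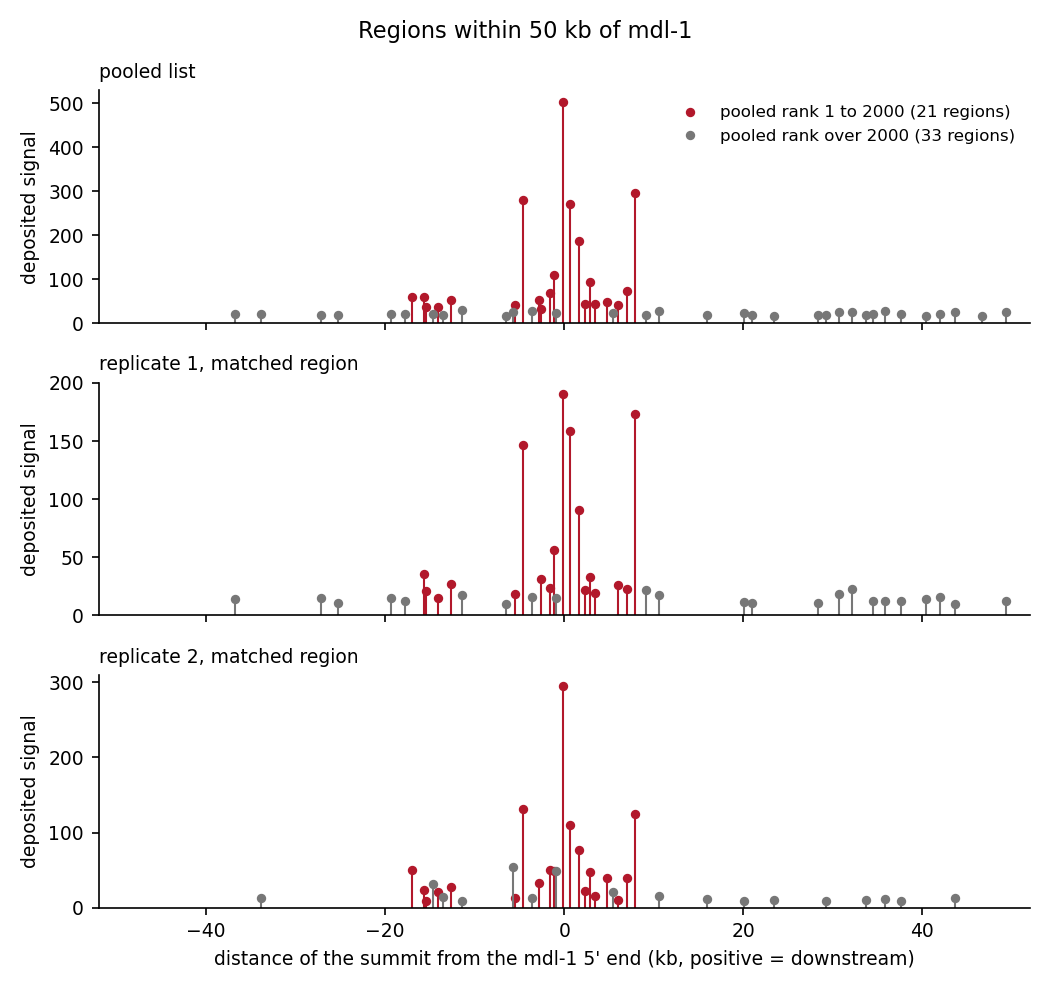
Deposited signal of the regions within 50 kb of mdl-1 against the distance of the summit from the gene's 5' end in kb, for the pooled list and for the matched region in each replicate list; red marks pooled ranks 1 to 2000 and grey lower ranks. The 21 red regions lie within 24.98 kb, and the pooled signal outside that stretch does not pass 26.9.

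On the rest of X the 450 members were spread along the whole chromosome and most had modest signal. Their pooled signal was 30.9 at the lowest, 35.1 at the median and 216.3 at the highest, against 30.9, 34.9 and 340.2 for the autosomal regions of the same ranks. The lower-ranked regions on X had a median of 20.1. The members just inside the limit ranked 1994, 1995 and 1997 with signals of 30.93 each, and the X regions just outside ranked 2002, 2005 and 2011 with 30.92, 30.91 and 30.90, so the limit separates regions of nearly equal signal. Without the mdl-1 neighbourhood, 7.52% of X regions ranked 1 to 2000 (95% exact interval 6.87 to 8.22%), and the shares on the 5 autosomes were 5.92 to 7.01%. X carried 25.4 members per Mb, against 17.3 to 21.3 on the autosomes, and 338 regions of any rank per Mb, against 284 to 304.

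The authors' thresholded list, which is the 259 strongest pooled regions, held 62 of the 450 members (13.8%) and 184 of the 1529 autosomal regions (12.03%). Of these 62, 60 had a match in both replicate lists, and 33 were among the 259 strongest of both replicates. The remaining 388 members ranked below that threshold.

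The strongest members on the rest of X lay at epn-1, C36E6.2 and epg-7. The first, with its summit in the non-coding RNA gene T04C10.8 and 477 bp upstream of epn-1, an epsin gene of endocytosis, ranked 13 with a pooled signal of 216.3, and 91.2 in replicate 1 and 128.8 in replicate 2. Next came C36E6.2, ranked 16, with 194.5, and 98.7 in replicate 1 and 91.8 in replicate 2. The summit at epg-7, which encodes a scaffold protein of selective autophagy, ranked 17 with 189.6, and 86.6 in replicate 1 and 101.5 in replicate 2. All 3 summits lay within 500 bp upstream of a 5' end, and those at C36E6.2 and epg-7 held CACGTG.

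The region in an intron of F09A5.3 ranked 22 with 166.7, and 70.3 in replicate 1 and 94.5 in replicate 2. The region ranked 31 lay 5004 bp upstream of bcat-1, which encodes a branched-chain amino acid aminotransferase, with 144.3, and 80.5 in replicate 1 and 62.8 in replicate 2. Both held CACGTG, and the bcat-1 window printed above holds a run of CT as well, the GAGAGAG repeat on the other strand. At zfp-3, named as a zinc finger gene, the region ranked 32 with 143.8, and 51.1 in replicate 1 and 92.03 in replicate 2. The regions at nhr-32, a nuclear hormone receptor gene, and tatn-1, which encodes tyrosine aminotransferase, ranked 37 and 42 with 122.2 and 119.3. Their signals were 62.2 and 61.9 in replicate 1 and 56.9 and 56.4 in replicate 2, and both held CACGTG.

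Further down the list came ain-1, puf-9, sma-9 and mom-1. The region 997 bp upstream of ain-1, a GW182-family gene of microRNA silencing, ranked 38 with 120.4 (41.0 in replicate 1 and 71.6 in replicate 2). That at puf-9, a Pumilio-family RNA-binding protein gene, ranked 55 with 105.3 (49.2 in replicate 1 and 58.6 in replicate 2). The region 2894 bp upstream of sma-9, a Schnurri-type zinc finger gene of BMP signalling, ranked 74 with 87.6 (47.1 in replicate 1 and 42.0 in replicate 2). In a coding exon of mom-1, a Porcupine-type gene needed for Wnt secretion, the region ranked 88 with 80.7, with 38.8 in replicate 1 and 34.3 in replicate 2. Those at C30E1.4, K02A6.3, F13C5.2, pigx-1, mans-3, ZK470.2, C49F8.15, R04E5.9 with cnnm-2, and rab-14 with nipi-3 had pooled signals of 80.2 to 110.2.

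All of the 25 strongest members had a match in both replicate lists, at rank 121 or better in replicate 1 and 383 or better in replicate 2, and 12 had the higher signal in replicate 2. Among them, 8 held CACGTG, 4 held GAGAGAG, 14 lay in a promoter window and 19 in intergenic sequence. The widest gaps between replicate ranks toward replicate 1 were at ZK899.6 (67.7 in replicate 1 and 25.2 in replicate 2), nhr-1 (48.8 and 32.6), and nfki-1 (61.3 and 34.9) together with eef-1A.2 (55.4 and 33.4). The widest toward replicate 2 were at F13C5.2 (35.1 in replicate 1 and 67.0 in replicate 2), C49F8.15 (35.4 and 50.05) and ain-1. nfki-1 encodes a relative of IkappaB, and eef-1A.2 a translation elongation factor.

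**Figure D2:**
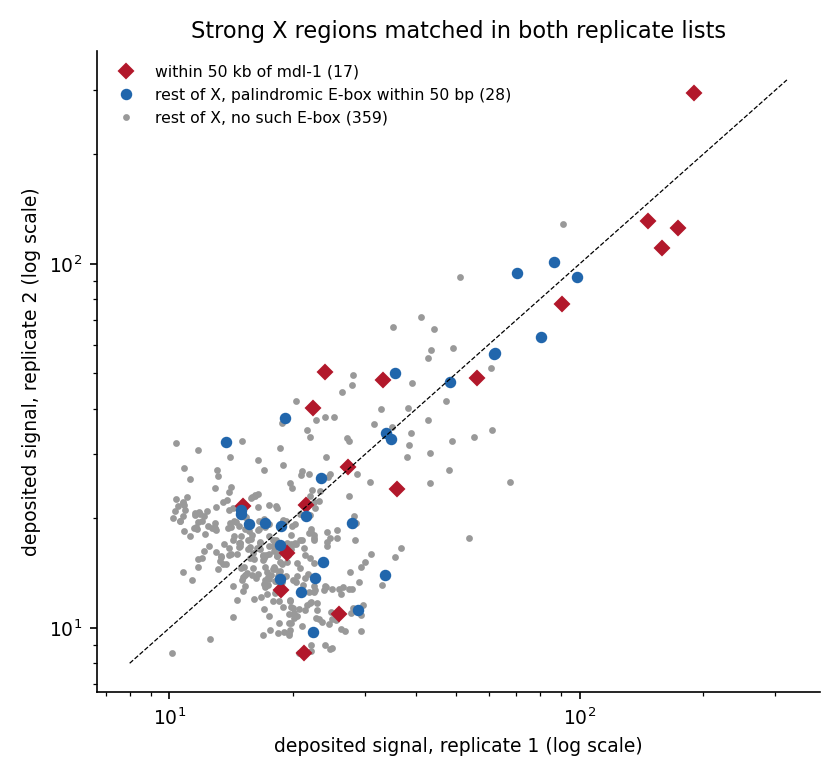
Deposited signal in replicate 1 against replicate 2, both on log scales, for members matched in both replicate lists; red marks the 17 near mdl-1, blue the 28 on the rest of X with CACGTG, grey the 359 without it, and the dashed line equal signal. The strong members lie near the line, and most of the others form a cloud below 30 in both replicates.

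Most members were found again in each replicate list of 30000, but few were among the strongest 2000 of both. A match in both lists was found for 387 of the 450 (86.0%, 95% exact interval 82.4 to 89.1%), 1294 of the 1529 autosomal regions (84.6%), 1176 of the 5532 lower-ranked X regions (21.3%) and 24.9% of all regions. Another 42 members had a match in replicate 1 alone and 21 in replicate 2 alone, and none lacked both. Only 81 members (18.0%) were among the 2000 strongest of both lists, against 16.5% of the autosomal regions and 1.17% of all regions. The pooled list was made from the same reads, so these matches are no independent support.

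Among the 387 matched members the replicate signals hardly tracked each other, with a Spearman correlation of 0.058 across regions, and -0.0046 on the autosomes. These regions share both libraries and were chosen by pooled signal, which was a median of 1.03 times the sum of the replicate signals, so the correlation only describes them. Signal was higher in replicate 2 for 42.9% of the members and 43.0% of the autosomal regions. The 2 replicate summits of a member lay a median of 42 bp apart, and 36 bp on the autosomes. A match was not always separate: 4 members shared their replicate 1 region with another member, and 2 shared a replicate 2 region.

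CACGTG marked the top of the X list as it did on the autosomes. It lay within 50 bp of the summit in 31 of the 450 members (6.89%, 95% exact interval 4.73 to 9.64%), 127 of the 1529 autosomal regions (8.31%) and 2.49% of all regions. The odds ratio was 0.817 (95% interval 0.525 to 1.24), and the difference did not pass the test (two-sided Fisher's exact test, Benjamini-Hochberg adjusted p = 0.672 over 9 sequences). It turned to 1.02 in the ranking of replicate 1 alone and to 1.05 within 25 bp of the summit. Among lower-ranked regions CACGTG was found in 1.72% on the rest of X and 2.18% on the autosomes. Regions are not replicates of a condition, so every such p-value describes these lists and not the spread between cultures.

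By rank, CACGTG was found in 8 of the 27 members ranked 1 to 100 (29.6%), against 20 of 66 on the autosomes (30.3%). Its share was 14.3% of the members below rank 100 and down to 259, against 22.0% of the autosomal regions, and 9.62% of those from there to rank 500, against 17.4%. From there to rank 1000 it was 7.14% against 6.22%, and over the last 1000 ranks it was 2.23% against 3.23%, close to the 2.49% of all regions. The members that carried it had better replicate ranks, a median of 813 in replicate 1 and 795 in replicate 2, against 2226 and 2338 for members without it. Their median pooled signal was 44.9, against 34.6 without CACGTG. Pooled signal was close to the sum of the replicate signals, so the replicate ranks add no separate support. The replicate summits of members with CACGTG also lay closer together. They were a median of 18.5 bp apart in 28 matched members (quartiles 6 and 57.5 bp), against 44 bp without it. Among strong autosomal regions the difference was smaller, with medians of 30 bp with CACGTG and 36 bp without it. These distances were not tested.

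**Figure D3:**
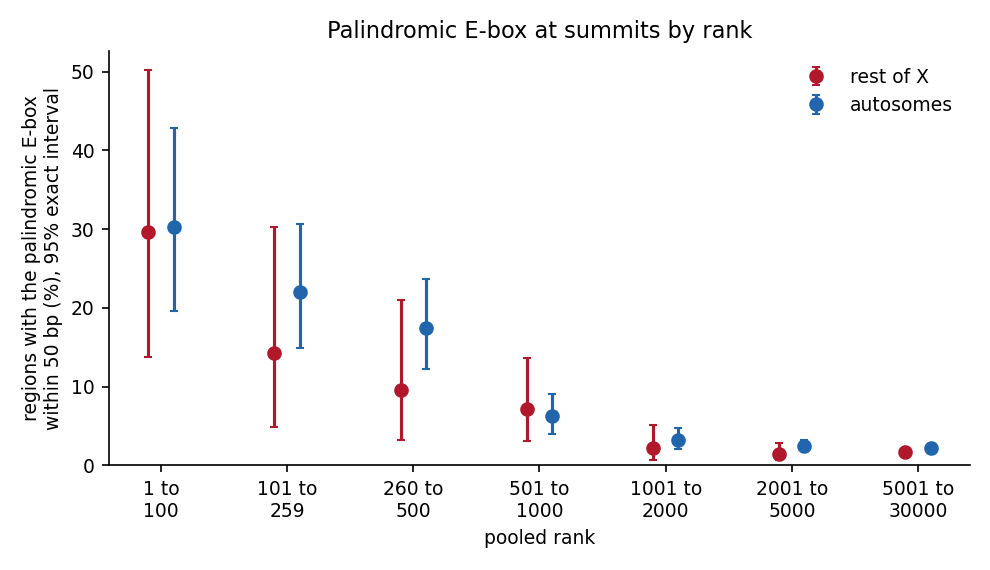
Share of regions with the palindromic E-box within 50 bp of the summit, in percent, by pooled rank, for the rest of X (red) and the autosomes (blue); bars are 95% exact intervals. On both, the share falls toward lower ranks, and the intervals overlap in every bin.

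The 31 members held 33 copies of CACGTG, whose centre lay a median of 15 bp from the summit (20 bp on the autosomes), and 23 of the 33 lay within 25 bp. The flanking bases were mixed, with C on both sides as the most frequent pair at only 5 of the 33. Of the 31, 13 lay in a promoter window (41.9%, against 39.4% of the autosomal regions with CACGTG), 20 were intergenic, 8 intronic and 1 in a coding exon, and 28 had a match in both replicate lists. Below the strongest, they include csb-1, whose human counterpart acts in transcription-coupled repair (rank 191, with 19.1 in replicate 1 and 37.6 in replicate 2), and lbp-2, a fatty acid binding protein gene (rank 334, with 18.6 and 16.9). These 2 genes were chosen after their values were seen. The summit at csb-1 also lay in the promoter window of F53H4.4, whose 5' end was the nearest, 32 bp away. The GC content of these windows was 49.5% at the median with CACGTG and 39.6% without it, and stratifying by GC content left the odds ratio at 0.777.

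None of the other 8 sequences differed between X and autosomes past the test either. The E-box variant CATGTG lay at 31 members (6.89%), 4.71% of the autosomal regions and 3.5% of all regions, with an odds ratio of 1.497 (exact test with adjusted p = 0.159). It passed in the ranking of replicate 1 alone (exact test, adjusted p = 0.0107), whereas that of replicate 2 alone gave an odds ratio of 0.796. The GA repeat GAGAGAG lay at 21 members (4.67%), 7.26% of the autosomal regions and 2.01% of all regions, with an odds ratio of 0.625 (exact test with adjusted p = 0.159). CACGTG and GAGAGAG fell together in 1 member, at bcat-1, and in 21 autosomal regions. The E-box CAGCTG lay at 8 members (2.18% of all regions), the GATA-type TGATAA at 39 (9.17%), the forkhead-type GTAAACA at 6 (1.23%) and the AP-1-type TGACTCA at 4 (1%), each share within 1 percentage point of that on the autosomes. Of the 450 members, 69.8% held none of the 9 sequences, against 70.9% of the autosomal regions and 79.5% of the lower-ranked X regions.

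The strongest CATGTG members below zfp-3 were at F13C5.2 and egrh-1, an EGR-type zinc finger gene (rank 138, with 38.3 in replicate 1 and 31.7 in replicate 2). For CAGCTG they were at C30E1.4, rme-4, a gene of receptor-mediated endocytosis (rank 100, 53.8 and 17.6), and tmem-184. TGATAA was led by ZK470.2 and by an intergenic region 6631 bp from the 5' end of elt-3, itself a GATA factor gene. The latter ranked 299 (23.3 in replicate 1 and 23.8 in replicate 2), and Y64H9A.2 came next at rank 320 (29.7 and 11.6). GTAAACA was led by eef-1A.2, eor-2 and taf-3, and TGACTCA by tsp-6, AH9.3 and C16B8.4, which rank 651, 1932 and 1963. None of these last 3 had a match in both replicate lists.

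GCGCAGGG, the core of the dosage compensation motif, was rare, and the call on it depended on the window. Within 50 bp it lay at 3 of the 450 members (0.667%, 95% exact interval 0.138 to 1.94%), 0 of the 1529 autosomal regions (up to 0.241%) and 0.0567% of all regions, which did not pass the test (exact p = 0.0117, adjusted p = 0.105 over 9 sequences). Within 100 bp it lay at 10 members (2.22%), 1 autosomal region (0.0654%) and 0.103% of all regions, with an odds ratio of 34.7 (95% interval 4.91 to 1508, adjusted p = 2.7e-05, Fisher's exact test). Within 50 bp, the list of replicate 1 alone gave 5 of 439 X regions against 0 of 1542 on autosomes (exact test, adjusted p = 0.00473), and that of replicate 2 alone gave 8 of 440 against 1 of 1540 (exact test, adjusted p = 0.000369). Among lower-ranked regions the 100 bp window held it in 0.0904% on the rest of X and 0.0669% on the autosomes. The genome holds 4.57 matches per Mb on X and 2.82 per Mb on the autosomes.

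The 3 members with GCGCAGGG within 50 bp were at gtr-1 (rank 331, 22.5 in replicate 1 and 17.7 in replicate 2), ins-39, an insulin-like peptide gene (rank 378, 29.3 and 14.7), and in an intron of Y41G9A.17 (rank 443, 23.1 and 22.3). The wider window added stronger members, which were named after their values were seen. They include R04E5.9 (rank 76, 39.1 in replicate 1 and 47.0 in replicate 2), the mom-1 coding exon (rank 88) and W02H3.3 (43.3 and 30.3). Of the 10, 9 had a match in both replicate lists, 4 were in the authors' thresholded list, 7 were intergenic and 3 lay in a promoter window. Their pooled signals were 33.2 to 86.4.

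Taken over all ranks from 1 to 2000, X regions lay less often at promoters and in coding exons than autosomal regions, and more often between genes. Down to rank 500 the promoter difference changed direction from bin to bin, on few X regions each. A promoter window, 1000 bp upstream to 500 bp downstream of a protein-coding 5' end, held 136 of the 450 summits (30.2%, 95% exact interval 26.0 to 34.7%), 565 of the 1529 autosomal summits (37.0%) and 29% of all summits. The odds ratio was 0.739 (95% interval 0.584 to 0.931, two-sided Fisher's exact test, p = 0.00846, a single test). It kept its direction but did not pass under 6 of 10 alternatives, among them the ranking of either replicate alone, at 0.806 and 0.884. Coding exons held 12.4% of the members, 19.2% of the autosomal regions and 24.4% of all regions (odds ratio 0.597, exact test, adjusted p = 0.00438 over 6 classes), but in the authors' thresholded list that odds ratio was 3.02 and did not pass. Intergenic sequence held 50%, 43.2% and 34.3% (odds ratio 1.32, exact test, adjusted p = 0.0337).

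By rank, a promoter window held 14 of the 27 members ranked 1 to 100 (51.9%, 95% exact interval 31.9 to 71.3%), against 23 of 66 autosomal regions (34.8%, 23.5 to 47.6%), and these intervals overlap. Below rank 100 and down to 259 the shares were 40% against 54.2%, and from there to rank 500 they were 44.2% against 37.0%. Over the next 500 ranks they were 25% against 37.6%, and over the last 1000 they were 25.4% against 34.2%. Coding exons held 1 of the 27 members ranked 1 to 100, against 0 of the 66 autosomal regions. The shares by rank were not tested.

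Among lower-ranked regions the differences ran the same way as over ranks 1 to 2000. There, 23.6% of summits on the rest of X and 29.8% on the autosomes lay in a promoter window, 21.5% and 25.7% in coding exons, and 39.5% and 32.1% between genes. In a logistic model over all regions, with large-sample intervals, the odds ratio of strong regions over that of lower ranks was 1.02 for promoters (95% interval 0.803 to 1.29), 0.756 for coding exons (0.552 to 1.04) and 0.954 for intergenic sequence. No ratio passed the test over 15 features, and the lowest unadjusted p was 0.0828. GCGCAGGG was left out of these features, because 0 strong autosomal regions held it within 50 bp. For the features in the model, the X to autosome difference was thus not shown to be particular to the strong regions.

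Introns held 25.3% of the members and 24.5% of the autosomal regions (31.6% of all), and non-coding genes 8.0% and 6.93% (4.6% of all). Few summits lay in a 3' UTR, 2.67% against 3.01% (3.43% of all), or a 5' UTR, 1.56% against 3.14% (1.69% of all). None of these 4 classes passed the test, with adjusted p of 0.148 to 0.874.

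**Figure D4:**
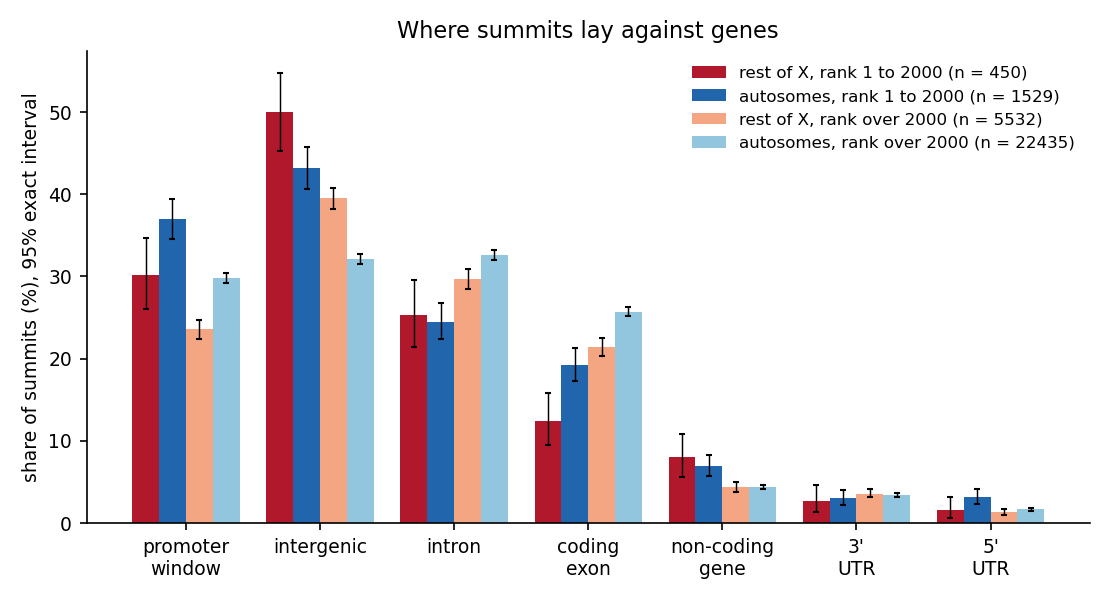
Share of summits in percent for the promoter window and for each class of annotated feature, with 95% exact intervals, for strong regions on the rest of X, strong autosomal regions and the lower-ranked regions of each. Promoter and coding exon shares are lower on X at both levels of rank, and the intergenic share is higher.

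Of the 136 members in a promoter window, 113 lay upstream of the nearest 5' end, and the median position was 265 bp upstream. For 13 of them the summit fell in the windows of 2 or more genes. Of the other 314 members, 170 lay inside a protein-coding gene and 144 lay in neither, with a median of 2494 bp to the nearest 5' end. Far members were common: 68 of the 450 lay more than 5000 bp from any protein-coding 5' end. Among the 25 strongest, these include the regions upstream of bcat-1 and 8108 bp upstream of nhr-1.

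**Figure D5:**
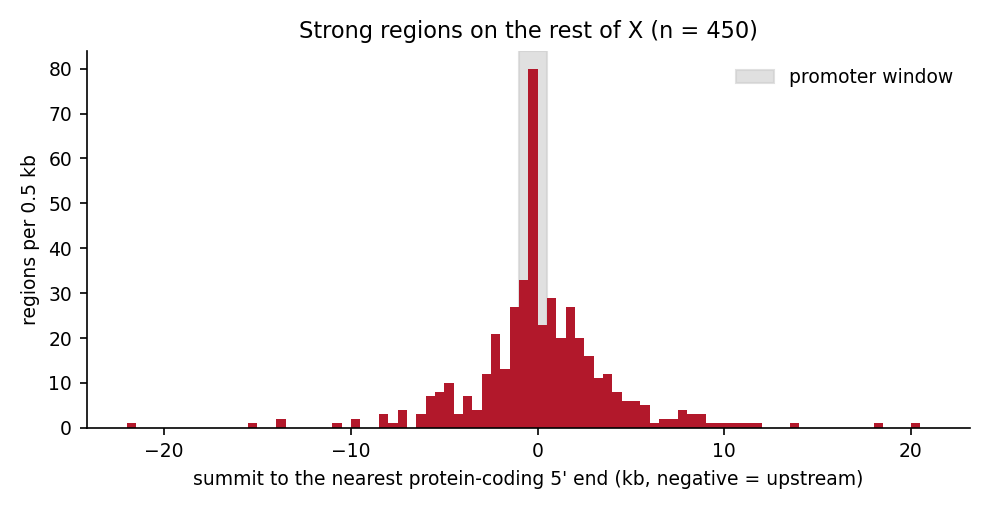
Distance from each summit on the rest of X to the nearest protein-coding 5' end in kb, negative upstream, as the number of members per 0.5 kb; the grey band is the promoter window. The highest bar is just upstream of the 5' end, and members reach beyond 20 kb.

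Members were spaced out along X. Neighbouring summits were a median of 26867 bp apart, with gaps of 199 to 421513 bp, and each Mb held 19 to 32 members. The left, middle and right parts of X, of equal length, held 133, 163 and 154. Only 28 members (6.22%) had another within 1 kb, always as a pair, against 35.1% of the lower-ranked X regions, in groups of up to 5. That set is far denser, with 230 to 353 regions per Mb, so these shares are not a comparison of clustering. The closest pair lay 199 bp apart at eef-1A.2 (ranks 70 and 204).

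Named by promoter window, gene body or nearest 5' end, the 450 members fell to 383 genes, of which 333 had 1 member and 4 had as many as 4. Those 4 were bcat-1, sma-9, hda-4, a class II histone deacetylase gene, and nhr-35, named here after their counts were seen. At bcat-1 the members ranked 31, 165, 665 and 1567 over 6.13 kb, and at sma-9 they ranked 74, 127, 620 and 1254 over 8.30 kb. At hda-4 they ranked 119, 718, 1301 and 1529 over 14.4 kb, and 2 of them held CACGTG. The second bcat-1 region, 274 bp upstream of the 5' end, had 32.9 in replicate 1 and 13.1 in replicate 2, and the second at sma-9, in an intron, had 28.0 and 49.5. At bcat-1 both of the stronger regions had the higher signal in replicate 1, and at sma-9 the first had it in replicate 1 and the second in replicate 2.

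Nuclear hormone receptor genes stood high in the count. These encode ligand-regulated zinc finger transcription factors, a family much expanded in nematodes. Of the 23 genes on X with an nhr symbol, which leaves out daf-12, 7 had a member in the promoter window (30.4%) and 10 in the window or gene body (43.5%), against 5.31% and 10.5% of the 2713 protein-coding genes on X outside the mdl-1 neighbourhood. Another 8 had lower-ranked regions only. In all, 22 members took the name of an nhr gene, with a median pooled signal of 39.4, and 4 of them held CACGTG. The strongest were nhr-32 (rank 37), nhr-1 and nhr-3. At nhr-1 the promoter region ranked 153 with 23.9 in replicate 1 and 37.9 in replicate 2, beside the far upstream region of rank 82. The intronic region of nhr-3 ranked 186 with 30.8 in replicate 1 and 25.1 in replicate 2. Other promoter members were weak: the strongest at nhr-35, nhr-173 and nhr-71 had pooled signals of 35.2, 32.1 and 31.3. Their matches ranked 20817, 18085 and 20382 in replicate 2. The family was chosen with earlier results known, and no set test was made.

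The other families are read against 5.31% of all X protein-coding genes with a member in the promoter window and 10.5% in window or body. Each family, here and in the next paragraph, was a set of gene symbols, so genes of the same kind under other symbols are left out. Of the 18 homeobox genes with a ceh symbol none had a promoter member, and 1, ceh-18, had one in an intron (rank 1635). A member outside window and body, 2057 bp from the 5' end of ceh-31, ranked 908. The ceh set leaves out homeobox genes such as vab-3, pha-2 and ttx-3, which gave their names to members with best ranks of 1418, 1815 and 1915. Among the 7 basic helix-loop-helix genes only mxl-3, which encodes a Max-like protein of the network MDL-1 belongs to, had a promoter member. It ranked 1045 with 34.7, and 22.9 in replicate 1 and 11.2 in replicate 2, and lacked CACGTG within 50 bp. A stronger member named for mxl-3, 5753 bp from its 5' end, ranked 321 with 45.5 (19.9 in replicate 1 and 24.3 in replicate 2). Of the 34 neuropeptide and insulin-like peptide genes, ins-39 had a promoter member, and nlp-61 and flp-5 had one in the gene, together 8.82% of the family. None of 27 genes with a col symbol, 6 innexin genes or 5 vitellogenin genes had a member in window or body. Members outside both took the names of col-166 (rank 1298), col-185 (rank 1310), col-176 (rank 1954) and the innexin gene unc-9 (rank 1767), whose 5' ends were the nearest. The col set leaves out the collagen gene dpy-7, where a member ranked 1637, 198 bp from the 5' end.

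In the small sets of lin, sma, daf and unc genes the shares lay above those of all X genes (5.31% in the promoter window, 10.5% in window or body), on few genes each. lin-14, a heterochronic gene that sets the L1 programme, had a promoter member ranked 721 that matched only in replicate 2 (32.6), as the 1 of 6 lin genes (16.7%) with a member in window or body. Of the 6 sma and daf genes, sma-9 had a promoter member, and daf-12, a steroid hormone receptor gene, had its strongest in an intron (rank 790, only in replicate 2 with 27.1), so that 33.3% had one in window or body. Of the 16 unc genes, 3 had a promoter member, led by unc-58, a gene of the TWK channel family (rank 319, 27.5 in replicate 1 and 14.2 in replicate 2), and 5 (31.2%) had one in window or body. These 5 include unc-2, a voltage-gated calcium channel gene (rank 1010), and unc-10. Among 25 ligand-gated channel genes glr-8, a glutamate receptor gene, had 1 (rank 937). The potassium and calcium channel set held 12 genes, taken by the symbols twk, shk, slo, egl-19 and unc-2. In it, unc-2 and twk-17 had one in an intron. That set leaves out unc-58 and other channel genes that gave members their names, such as egl-36 (rank 979), cca-1 (rank 1497) and irk-3 (rank 1513). The cytosolic ribosomal protein gene rpl-11.2 had 1 (rank 804), and the other on X had none.

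tRNA genes were the small RNA genes that strong X regions reached most often. Within 200 bp of a tRNA gene lay 22 of the 450 members (4.89%, 95% exact interval 3.09 to 7.31%), 19 of the 1529 autosomal regions (1.24%), 75 of the 5532 lower-ranked X regions (1.36%) and 0.64% of all regions. Among lower-ranked autosomal regions the share was 0.339%, so X had the higher share at both levels of rank. These 22 reached 26 of the 276 tRNA genes on X (9.42%). The isotypes were spread. By count of genes, tRNA-Glu (4 of 23) and tRNA-Pro (4 of 20) came first, then tRNA-Leu (3 of 17) and tRNA-Ser (3 of 18). None of the 27 tRNA-Arg or 14 tRNA-Thr genes was reached. The 4 tRNA-Pro genes shared the regions ranked 523 and 631, and the latter had no match in replicate 1. These counts do not rank the isotypes. tRNA genes are more frequent on X than elsewhere in this genome, and the share was counted after seeing the data and not tested. The strongest were C28G1.t1, tRNA-Glu (rank 212, 28.6 in replicate 1 and 26.4 in replicate 2), K02A4.t1, tRNA-Ser (rank 348, 29.9 and 15.2), and C04A11.t1, tRNA-Leu (rank 363, 16.4 and 23.4).

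The B box itself lay within 50 bp of 7 members (1.56%), 8 autosomal regions (0.523%) and 0.287% of all regions, with an odds ratio of 3.00 (95% interval 0.921 to 9.53, exact test, adjusted p = 0.159). The value turned with the replicate: the ranking of replicate 1 alone gave 6.22 (exact test, adjusted p = 0.0107), and that of replicate 2 alone 0.583. Besides the window printed above, at C04A11.5, B box members lay at lgc-21 with a tRNA-Lys gene (rank 385, 17.0 in replicate 1 and 27.1 in replicate 2) and at sor-3 with a tRNA-Leu gene (rank 429, 25.9 and 12.8).

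Among the other non-coding classes, unclassified ncRNA genes lay within 200 bp of 72 members (16.0%), 9.29% of the autosomal regions, 7.72% of the lower-ranked X regions and 4.99% of all regions, led by T04C10.8, F09A5.11 and T14G8.5 at the regions ranked 13, 22 and 31. For lower-ranked autosomal regions the ncRNA share was 3.78%, so here too X was higher at both levels of rank. snoRNA genes lay near 1 member (0.222%), D2021.6 (rank 296, 16.5 in replicate 1 and 28.9 in replicate 2), against 1.70% of the autosomal regions and 0.323% of all. No member lay near any of the 74 miRNA genes or 3 snRNA genes on X, each a share of up to 0.816% by the exact interval, and the autosomal shares were 0.262% and 0.981% (0.14% and 0.107% of all regions). piRNA genes lay near 3 members (0.667%), 2.68% of the autosomal regions, 0.343% of the lower-ranked X regions and 3.54% of all regions. lincRNA genes lay near 3 members (0.667%), against 0.458% of the autosomal regions (0.307% of all), and pseudogenes near 4 (0.889%), against 1.64% (2.89% of all). None of these shares was tested.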

How the data were processed

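The data were lists of regions from 2 ChIP-seq libraries of 1 group. The signal of a region (column 7) and a score that fell below 0 are the authors' deposited values. The signal ranked the regions, and the score entered no test. Scaling, aligner, peak caller and versions were not given in the sources used here. With no read counts the depth is unknown. Pooled and replicate lists in ce11 were used, each with 30000 regions, and the ce10 pooled list only for the share on X. In ce11 the thresholded list held the 259 strongest pooled regions.

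The members and lists were chosen with earlier results of these data known. Genes came from Ensembl release 115 and bases from RefSeq WBcel235. Each sequence was looked for on either strand, up to 50 bp from a summit. Shares were compared with two-sided Fisher's exact tests, adjusted by Benjamini-Hochberg over 9 sequences or 6 classes at a threshold of 0.05, and checked on simulated data. Ratios of odds ratios came from a logistic interaction term over 15 features, which leave out GCGCAGGG. Exact intervals are 95% Clopper-Pearson and cover counting error only.

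Named regions were the thresholded ones near mdl-1, the 25 strongest on the rest of X, 3 either side of the rank limit, up to 3 per sequence, family or class, and the widest replicate rank gaps among the 25. Others are said to be chosen after their values were seen. A region took the name of the gene whose promoter window or body held its summit, otherwise of the nearest 5' end. Python 3.11.15, pandas 2.3.3, scipy 1.17.1 and matplotlib 3.10.9 were used.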

Additional observations from a re-analysis of the deposited data

How the results depend on the processing

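No paired analysis was possible because the samples form 1 group, so nothing was compared between samples. The CACGTG odds ratio, 0.817, was 0.777 to 0.941 under 9 alternatives. It turned to 1.048 within 25 bp of the summit, and without one replicate it ranged over 0.8666 and 1.021; the cause was not tested. The promoter odds ratio, 0.739, kept its direction under the 10 alternatives. It missed the threshold at rank 1000 (0.8135), in the thresholded list (0.9185), for matched regions only (0.8095), with a window of 500 bp up and 200 bp down (0.8513), and in each replicate's own ranking (0.8057 and 0.8836). Fewer regions enter at rank 1000 and in the thresholded list. The number of sequences past the threshold, 0, was 1 within 100 bp, and 1 to 3 without one replicate. The number of annotated classes, 2, was 1 at rank 1000.

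Matches in both replicates, 86.0%, were 70.22% within 100 bp, 49.56% within 50 bp and 18% in the 2000 strongest of each list, stricter by construction. The share on X, 23.55%, was 28.96% in the thresholded list and 22.9 to 24.6% otherwise. Genes reached were 285 with gene bodies counted. Merging summits within 1 kb left 436 of 450 members. Alternatives for coding exon, intergenic, GAGAGAG and B box shares were added after seeing the data. There the coding exon odds ratio reversed to 3.017 in the thresholded list, was 0.581 and past the threshold no more at rank 1000, and the intergenic one, 1.896, did not pass in the thresholded list. The B box ratio ranged over 0.5825 and 6.223 without one replicate. Unknown depth limits how far weak ranks can be read.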
